A study of Homo sapiens with 11 samples.

Results

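ETV6, RUNX1 and 8 genes tied to their fusion were followed across Reh cells, an established line of B-cell precursor leukaemia that carries ETV6-RUNX1. The 10 genes were chosen by symbol, out of 19776 genes measured. They are ETV6, RUNX1, the intronic transcript RUNX1-IT1, EPOR, TCFL5, IGF2BP1, DSC3, CBFA2T3, PIK3C3 and NOVA1. Each gene was followed through its brightest probe set, and all 5 probe sets of ETV6 and all 13 listed with RUNX1 were followed as well.

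All cells stably expressed miR-125b from a viral vector, control cells included. On top of that they received miR-99a precursor oligo at 66 µM (3 arrays), miR-100 precursor oligo at 66 µM (3 arrays), both oligos at 33 µM each (3 arrays), or scrambled control oligo at 66 µM (2 arrays). The oligos were given again after 72 h, and RNA was taken 48 h after that. The labels do not say whether arrays of a group came from separate cultures, so p-values measure the spread between these arrays, which may be technical.

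The fusion joins the front part of ETV6, an ETS-family transcriptional repressor, to nearly all of RUNX1, the DNA-binding subunit of core binding factor, which is needed to form blood cells. The fusion protein binds RUNX1 sites and is known to recruit corepressors there. Reh cells are also known to have lost the remaining intact ETV6 allele. High expression of EPOR, TCFL5, IGF2BP1, DSC3, CBFA2T3, PIK3C3 and NOVA1 has been associated with leukaemia of this type.

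The sequences of miR-99a and miR-100 are shown because these oligos differed between the groups, and that of miR-125b because all cells expressed it. The scrambled oligo is not shown. The mature RefSeq sequences (GRCh38.p14 gene table, 5′ to 3′) have the seed, bases 2 to 8, in capitals.
miR-99a-5p: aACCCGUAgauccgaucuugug
miR-100-5p: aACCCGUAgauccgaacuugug
miR-125b-5p: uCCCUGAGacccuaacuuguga
The miR-99a and miR-100 oligos share the seed ACCCGUA and differ at 1 base (U16A from miR-99a to miR-100, counted from the 5′ end), whereas miR-125b has another seed, CCCUGAG.

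Values are log2 expression, so that a difference of 1 is a doubling. The array medians were 5.95 to 5.984, and correlations between arrays were 0.989 to 0.997. B-lineage markers were high in 6 of 7 measured cases, among them DNTT at 13.09, PAX5 at 11.65 and EBF1 at 12 (means of all arrays), while VPREB1 stood at 5.48. None of the 5 T-cell, 4 myeloid, 4 erythroid or 5 epithelial markers averaged above 8. Replicate 3 lay away from the rest whichever oligo was given. On a principal component that held 53.2% of the variance, these arrays lay between -21.4 and -18, the other treated arrays between 7.78 and 12.4, and the control arrays at -3.42 and 2.12. Control has no replicate 3, so a treatment mean holds such an array and the control mean does not.

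ETV6 gave low signals. Its brightest probe set, 239740_at, read 6.23, 6.21 and 6.03 with miR-99a, 6.17, 6.12 and 6.08 with miR-100, 6.13, 6.1 and 6.13 with both, and 6.1 and 6.04 in scrambled control (replicates 1, 2 and, where present, 3). It lay close to the median of all probe sets, 5.97, and 55.2% of probe sets were at or below it. The other 4 ETV6 probe sets averaged between 4.92 and 5.79 and lay below that median. Which part of the ETV6 transcript each of them reads is not given in the sources used here, so which of them read the part kept in the fusion is not known here.

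RUNX1 had 1 bright probe set among many dim ones. The probe set 209360_s_at read 10.09, 10.29 and 10.08 with miR-99a, 10.1, 10.16 and 10.19 with miR-100, 10.26, 10.38 and 10.06 with both, and 10.13 and 10.22 in control. Of all probe sets 96.2% were at or below it, and its groups overlapped throughout. The other 12 averaged between 4.87 and 6.86. Of the 13, 5 averaged above the median of all probe sets, and 8 carry the suffix that the maker gives to probe sets that may also bind other transcripts. All 13 are listed with RUNX1 and with 2 further noncoding genes, LOC100506403 and LOC101928269, whose current positions on chromosome 21 start 323205 and 905358 bases from the RUNX1 span. A choice limited to probe sets listed with 1 gene would leave RUNX1 with none, so its brightest listed probe set was used. Probe sets differ in affinity, so levels of different probe sets do not rank the amounts of transcript.

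RUNX1-IT1 is a noncoding RNA of 1502 bases on chr21:35037925-35039426 (GRCh38.p14). It lies inside the span of RUNX1, chr21:34787801-35049302, on the same strand, so its signal cannot be told apart from unspliced RUNX1 RNA. Its only probe set, 220918_at, read 7.38, 7.38 and 8.34 with miR-99a, 7.4, 7.28 and 8.19 with miR-100, 7.28, 7.32 and 8.28 with both, and 7.66 and 7.54 in control. In every treatment the replicate 3 array stood far above the others, and the control arrays lay between these and the others.

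The other 7 genes ranged from bright to dim. PIK3C3, the class III lipid kinase that starts autophagy, averaged 10.39 over all arrays, and CBFA2T3, a corepressor of the ETO family, 9.98. TCFL5, a basic helix-loop-helix transcription factor known from testis, averaged 9.35, and IGF2BP1, an RNA-binding protein of fetal tissue, 8.48. NOVA1, a splicing regulator of neurons, averaged 6.66, EPOR, the erythropoietin receptor, 6.63, and DSC3, a desmosomal cadherin of epithelia, 6.58. The brightest probe sets of these last 3 had 67.3%, 66.7% and 65.9% of probe sets at or below them. The neuronal marker list averaged 7.62 to 7.77 in treated and 7.7 to 7.71 in control arrays, with TUBB3 at 9.82 and ELAVL4 at 9.07, whereas RBFOX3 and SYP stood at 5.94 and 5.97. The erythroid list averaged 5.74 to 5.87 in treated and 5.84 to 5.85 in control arrays, and the epithelial list 5.52 to 5.64 and 5.54 to 5.56. Each bulk value mixes all cells of a culture, so fewer cells and less RNA per cell cannot be told apart.

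**Figure D1:**
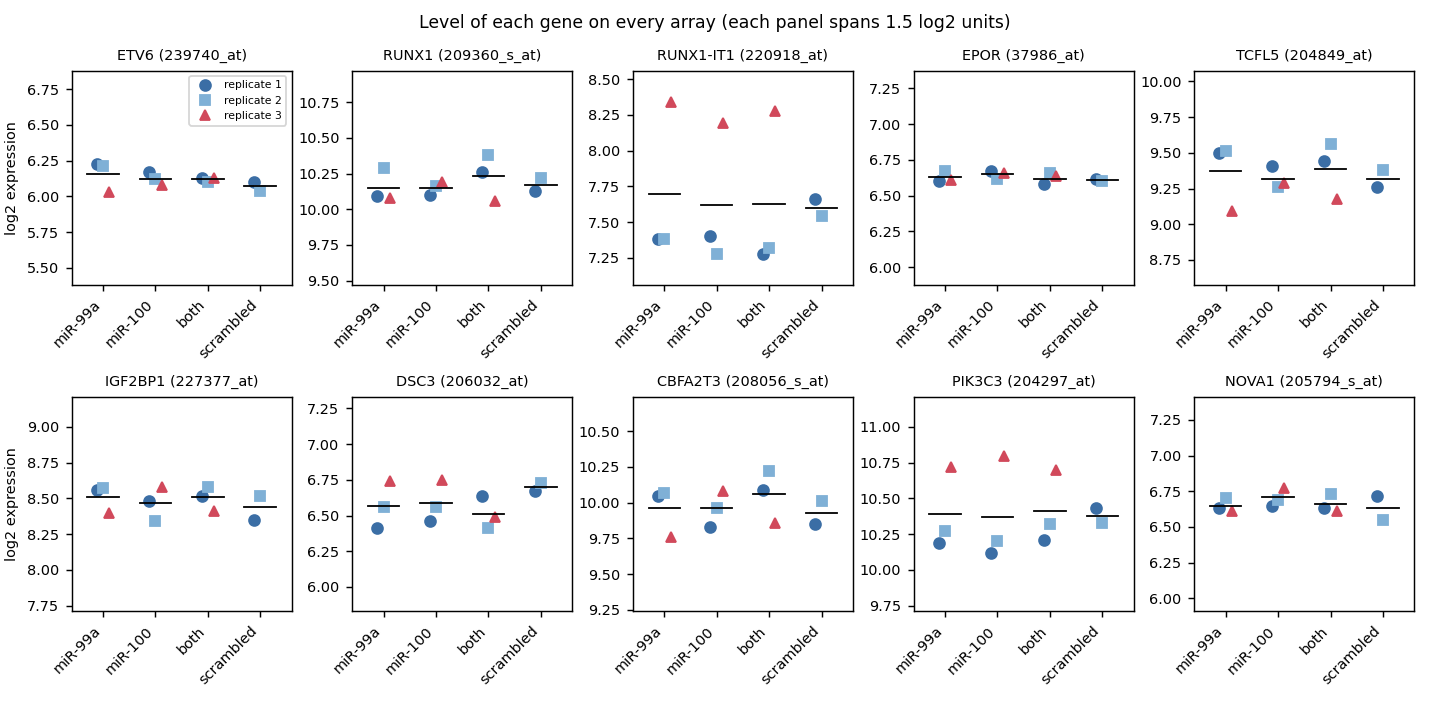
Log2 expression of each gene on every array (y axis, 1.5 log2 units in each panel) by group (x axis), with a bar at the group mean and the marker giving the replicate number. RUNX1-IT1 and PIK3C3 are high on the 3 replicate 3 arrays (8.19 to 8.34 and 10.7 to 10.8), while the 4 group means of each gene lie within 0.04 to 0.19 of each other.

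The first question was whether miR-99a, miR-100 or both, added to miR-125b, moved ETV6, RUNX1 or the associated genes. None of the 10 genes passed limma's test against scrambled control in any treatment, in the fit of group means over all 11 arrays. The background was 0% of all genes called in each of the 3 comparisons (miR-99a 0%, miR-100 0%, combination 0%), with 198, 305 and 724 genes (1%, 1.54% and 3.66%) at an unadjusted p under 0.05 and none of the 10 among them. This background holds for that fit, which has no replicate term. With replicate 3 as a term 0, 0 and 443 of all genes were called, and on arrays numbered 1 and 2 alone 0, 0 and 290, none of the 10 among them. With the replicate number as a block 5, 7 and 863 were called. RUNX1-IT1 was among the 863 of the combination (-0.29, adjusted p 0.0377 by limma). At an unadjusted p under 0.05, replicate 3 as a term had 1, 2 and 2 of the 10 genes (1734, 2258 and 3289 of all genes). Arrays numbered 1 and 2 alone had 3, 3 and 3 of the 10 (1902, 3412 and 3043 of all genes). The block had 1, 2 and 2 of the 10 (1981, 2502 and 3534 of all genes). These 3 comparisons share the control arrays.

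The log2 difference of ETV6 was 0.09 ± 0.07 for miR-99a, 0.05 ± 0.07 for miR-100 and 0.05 ± 0.07 for the combination (SE, 3 arrays against 2). The 95% intervals ran from -0.07 to 0.26, from -0.11 to 0.22 and from -0.11 to 0.22, so true changes within these bounds remain compatible with these arrays. The 5 ETV6 probe sets, the brightest included, had no common direction. With both oligos 4 of 5 were higher and 1 lower, between -0.06 and 0.22, and with miR-100 3 were higher and 2 lower. The 0.22 ± 0.07, the largest of the 5, was that of 205585_at (unadjusted p 0.0134 by limma), which was not called.

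RUNX1 had differences of -0.02, -0.02 and 0.06 (SE 0.1), with intervals of -0.24 to 0.2 for miR-99a, -0.24 to 0.2 for miR-100 and -0.16 to 0.28 for both. Its 13 probe sets spread around 0 too. With miR-100 7 were higher and 6 lower, with both 6 were higher and 7 lower, and none passed the test over 41104 probe sets (0% called).

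Among the associated genes DSC3 had the largest differences below control, -0.13, -0.11 and -0.19 (SE 0.11). It averaged 6.57 ± 0.16 after miR-99a, 6.59 ± 0.15 after miR-100, 6.51 ± 0.12 after both and 6.7 ± 0.04 in control (SD, n = 3, 3, 3 and 2). With both oligos its arrays lay below both control arrays, and ETV6 arrays lay above them. That is 2 of 10 genes without overlap, against 20.5% of all genes. With miR-100 only EPOR did not overlap with control before rounding, at a difference of 0.04 ± 0.06, against 13.4% of all genes, and with miR-99a 0 of 10, against 15.4%. CBFA2T3 had 0.03, 0.03 and 0.13 (SE 0.13), TCFL5 0.05, 0 and 0.07 (SE 0.14), and IGF2BP1 0.07, 0.03 and 0.07 (SE 0.1). The other 2 IGF2BP1 probe sets lay lower in each treatment, 223689_at at -0.13, -0.03 and -0.13 and 241574_s_at at -0.25, -0.07 and -0.14 (SE 0.09), and the mean of all 3 gave -0.1, -0.03 and -0.07, none of them called. EPOR lay between 0.01 and 0.04 (SE 0.06), and NOVA1 had 0.01, 0.07 and 0.02 (SE 0.08). In each of the 10 genes, every group overlapped with its neighbours when the 4 groups were ordered by their means.

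RUNX1-IT1 and PIK3C3 had the widest intervals. RUNX1-IT1 averaged 7.7 ± 0.55 after miR-99a, 7.62 ± 0.49 after miR-100, 7.63 ± 0.57 after both and 7.6 ± 0.08 in control. Its differences were 0.1, 0.02 and 0.02 (SE 0.37), which leaves room for -0.79 to 0.83 with both oligos. PIK3C3 had 0.02, 0 and 0.03 (SE 0.22). In both genes the replicate 3 arrays hold most of the spread.

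Among arrays numbered 1 and 2 alone, the 6 treated arrays and the 2 control arrays did not overlap in 4 of the 10 genes, against 16.2% of all genes. RUNX1-IT1 read 7.28 to 7.4 in treated and 7.54 to 7.66 in control arrays. Its differences there were -0.22 ± 0.08 for miR-99a, -0.26 ± 0.08 for miR-100 and -0.3 ± 0.08 for the combination (adjusted p 0.387, 0.117 and 0.0629), and -0.26 ± 0.07 over all treatments (adjusted p 0.0532), so the direction is opposite to that over all 11 arrays and the test was not passed. PIK3C3 read 10.12 to 10.32 in treated arrays and 10.33 and 10.43 in control. DSC3 also lay lower in the treated arrays, and ETV6 lay higher, at 6.1 to 6.23 against 6.04 and 6.1 in control before rounding.

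**Figure D2:**
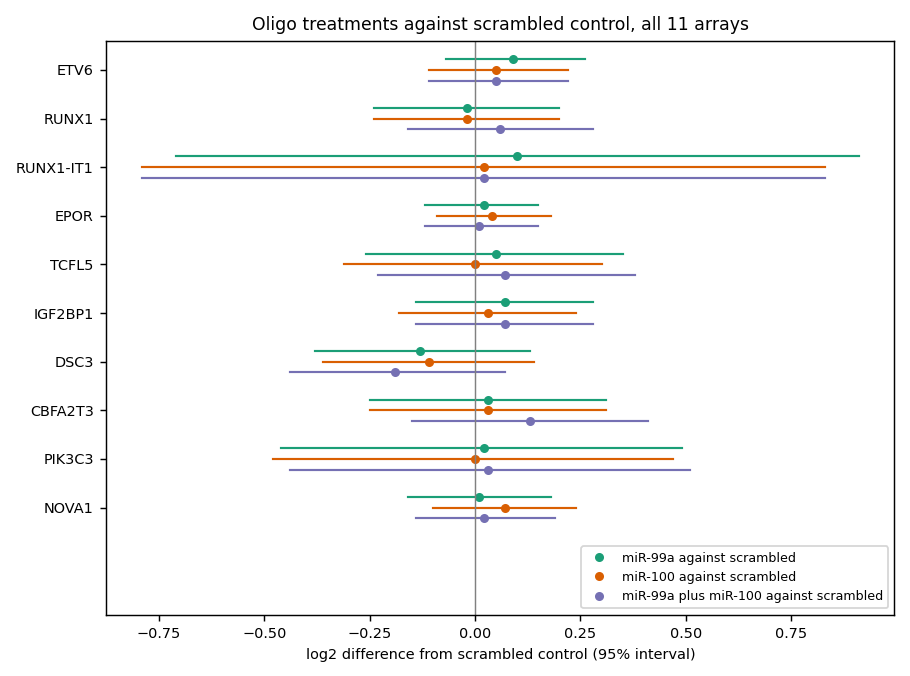
Log2 difference from scrambled control (x axis) for each gene (y axis) with its 95% interval, in the order miR-99a, miR-100 and both from top to bottom within a gene, over all 11 arrays. Every interval includes 0, and those of RUNX1-IT1 are the widest, such as -0.71 to 0.91 with miR-99a.

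Pooling the treatments against control called 0 of 10 genes, with 0% of all genes called and 489 (2.47%) at an unadjusted p under 0.05. None of the 10 was free of overlap, against 2.91% of all genes. Here 9 of the 10 genes were higher and 1, DSC3, lower, with a median difference of 0.04, against -0.005 for all genes. The differences lay between -0.14 and 0.07. These signs depend on the probe sets and arrays used. With the mean of all probe sets of a gene, RUNX1 (-0.01), TCFL5 (-0.01), IGF2BP1 (-0.07) and PIK3C3 (-0.03) also lay below control. Among arrays numbered 1 and 2, RUNX1-IT1 (-0.26) and PIK3C3 (-0.16) did. The counts of called genes depend on the fit too. Of all genes, replicate 3 as a term called 24 and arrays numbered 1 and 2 alone 198, none of the 10 among them. The replicate block called 508, with RUNX1-IT1 among them (-0.26, adjusted p 0.0401 by limma). In each of these 3 fits 3 of the 10 genes had an unadjusted p under 0.05, beside 3023, 3443 and 3302 of all genes in the same order.

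The oligos share a seed, and the next comparison was between them. Between miR-100 and miR-99a, 0 of 10 genes were called (0% of all genes, 194 of them, or 0.981%, at an unadjusted p under 0.05), and 0 of 10 did not overlap (4.66% of all genes), with differences between -0.08 and 0.06. ETV6 had -0.04 ± 0.07, RUNX1 0 ± 0.09 and EPOR 0.03 ± 0.06, with intervals of -0.18 to 0.11, -0.2 to 0.2 and -0.09 to 0.15. Setting the combination beside the averaged single oligos also called 0 of 10 (0% of all genes, 451 or 2.28% at an unadjusted p under 0.05), and 0 of 10 did not overlap (1.59% of all genes). CBFA2T3 had the highest difference, 0.1 ± 0.1, and RUNX1 had 0.08 ± 0.08. These 2 comparisons used no replicate term, although the number was taken to pair treatments. With the replicate block, the SE for miR-100 against miR-99a went from 0.33 to 0.07 for RUNX1-IT1 and from 0.19 to 0.07 for PIK3C3. For EPOR it went from 0.06 to 0.07. The block called 1 of all genes in each comparison, and 0 of the 10 had an unadjusted p under 0.05.

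The largest differences in this set of genes followed the replicate number. This comparison, of replicate 3 against replicates 1 and 2 within the treatments, was chosen because earlier results of these data had set replicate 3 apart. The labels do not say what the number stands for. If arrays of the same number shared a culture or a run, replicate 3 would be a single unit. The p-values of this comparison count every array as independent and would then measure only the spread between arrays. RUNX1-IT1 rose to 8.27 ± 0.08 in replicate 3 arrays (SD, n = 3), against 7.34 ± 0.06 in replicates 1 and 2 (n = 6). The difference of 0.93 ± 0.07, a 1.9-fold higher signal, had an adjusted p of 9.73e-15 by limma. Within single treatments it was 0.96 for miR-99a, 0.85 for miR-100 and 0.98 for the combination. PIK3C3 rose by 0.52 ± 0.07 (1.43-fold, adjusted p 1.29e-08), at 10.74 ± 0.05 against 10.22 ± 0.07. In both genes every replicate 3 array lay above every other treated array. Arrays without overlap, in either direction, were found for these 2 of the 10 genes and for 25.9% of all genes.

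TCFL5 fell by 0.26 ± 0.07 (adjusted p 0.00237), at 9.19 ± 0.1 in replicate 3 and 9.45 ± 0.11 in replicates 1 and 2, with overlap. Its call ended without miR-99a replicate 3 (-0.19, adjusted p 0.111) and with the mean of both of its probe sets (-0.13, adjusted p 0.183). In all, 3 of the 10 genes were called, against 29.3% of all genes, so the share is near the background. At an unadjusted p under 0.05 there were 4 of 10, against 35.9% of all genes. DSC3 had 0.16 ± 0.07 (adjusted p 0.0948) and would be called without 1 array of the combination, replicate 1 (0.2, adjusted p 0.0261) or replicate 3 (0.25, adjusted p 0.0241).

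CBFA2T3 had -0.14 ± 0.07 (adjusted p 0.175), with unlike values by treatment. Replicate 3 read 9.76 for miR-99a, 10.08 for miR-100 and 9.86 for the combination, which is -0.3, 0.19 and -0.3 from the mean of the other arrays of the same treatment. Without miR-100 replicate 3 the difference was -0.3 ± 0.07 (adjusted p 0.00212). TCFL5 had -0.41, -0.05 and -0.32 in the same order. A test of whether the replicate 3 difference depends on the treatment, added after these values were seen, called 0 of 19776 genes (1706 at an unadjusted p under 0.05), with an adjusted p of 0.566 for both genes.

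The brightest probe set of RUNX1 did not pass the test in this comparison, at -0.1 ± 0.07 (interval -0.24 to 0.03, adjusted p 0.328 among probe sets), although RUNX1-IT1 lies within the same gene. Adjusted among genes, the p of RUNX1 was 0.308 by limma. In refits also adjusted among genes, the RUNX1 difference was -0.19 (adjusted p 0.0745) without miR-100 replicate 3. It was -0.02 (adjusted p 0.908) without replicate 3 of the combination. Of the 13 RUNX1 probe sets 10 were lower in replicate 3 and 3 higher. The probe set 208129_x_at fell by 0.19 ± 0.07 (adjusted p 0.0299), reading 6.4, 6.57 and 6.39 in replicate 3 and 6.57 to 6.73 in the other treated arrays. The probe set 210365_at rose by 0.28 ± 0.07 (adjusted p 0.00118), reading 6.89, 6.88 and 6.88 in replicate 3 and 6.5 to 6.7 in the other treated arrays. In control 210365_at read 6.73 and 6.62. These 2 probe sets of 1 gene were called in opposite directions, against 24.5% of all probe sets called. None of the 5 ETV6 probe sets was called, with differences between -0.08 and 0.03.

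**Figure D3:**
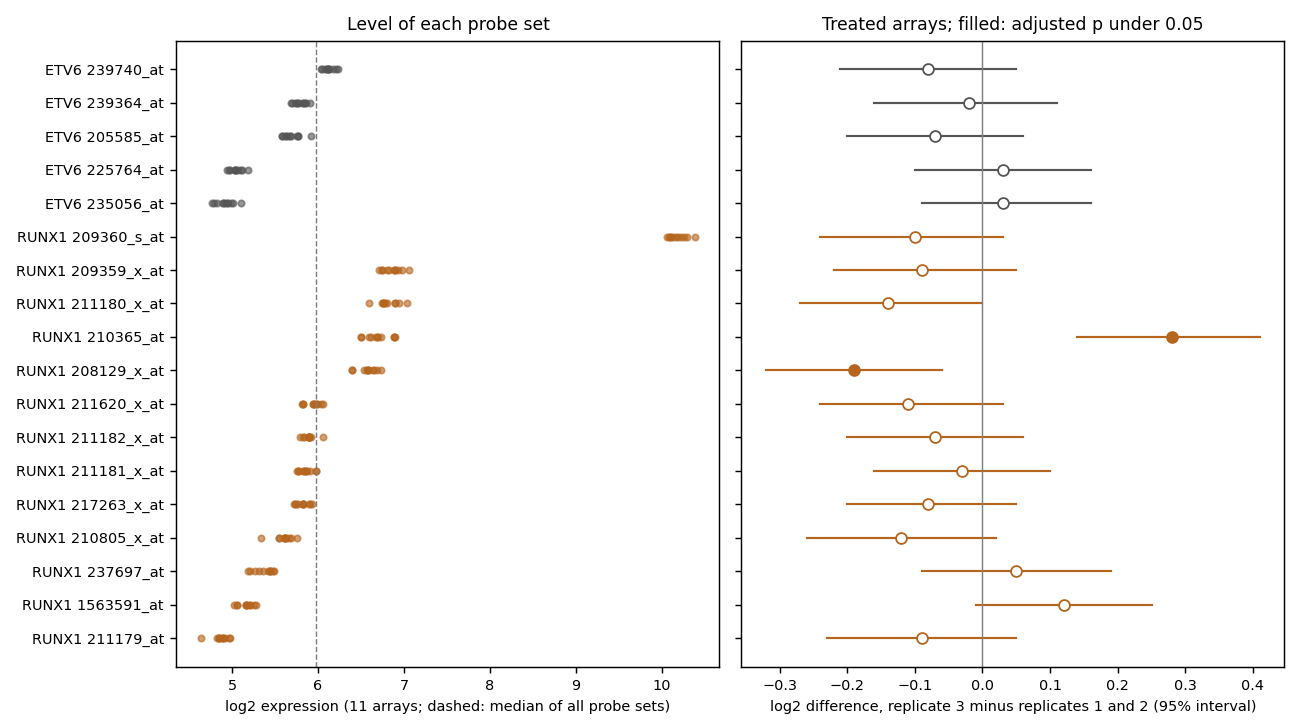
Left, log2 expression of each ETV6 and RUNX1 probe set on the 11 arrays (points), with the median of all probe sets, 5.97, as a dashed line. Right, log2 difference of replicate 3 minus replicates 1 and 2 of the treatments with its 95% interval, where filled points had an adjusted p under 0.05. Only 209360_s_at lies near 10, and only 210365_at (0.28) and 208129_x_at (-0.19) are filled.

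Probe sets of other genes disagreed as well. Of the 7 PIK3C3 probe sets, 4 rose in replicate 3, by 0.52, 0.41, 0.37 and 0.21 for 204297_at, 229705_at, 239300_at and 232086_at. The dim 1569272_at fell by 0.21 ± 0.07 (adjusted p 0.0376), and 215394_at and 241304_at had 0.01 and 0.04. NOVA1 had -0.01 ± 0.06 at its brightest probe set but fell by 0.31 ± 0.06 (adjusted p 0.000185) at 207437_at, which read 5.81, 6 and 5.83 in replicate 3, against 6.15 to 6.29 in the other treated arrays. No EPOR, IGF2BP1 or DSC3 probe set was called. For EPOR a further probe set is listed with RGL3 as well and was not used here.

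**Figure D4:**
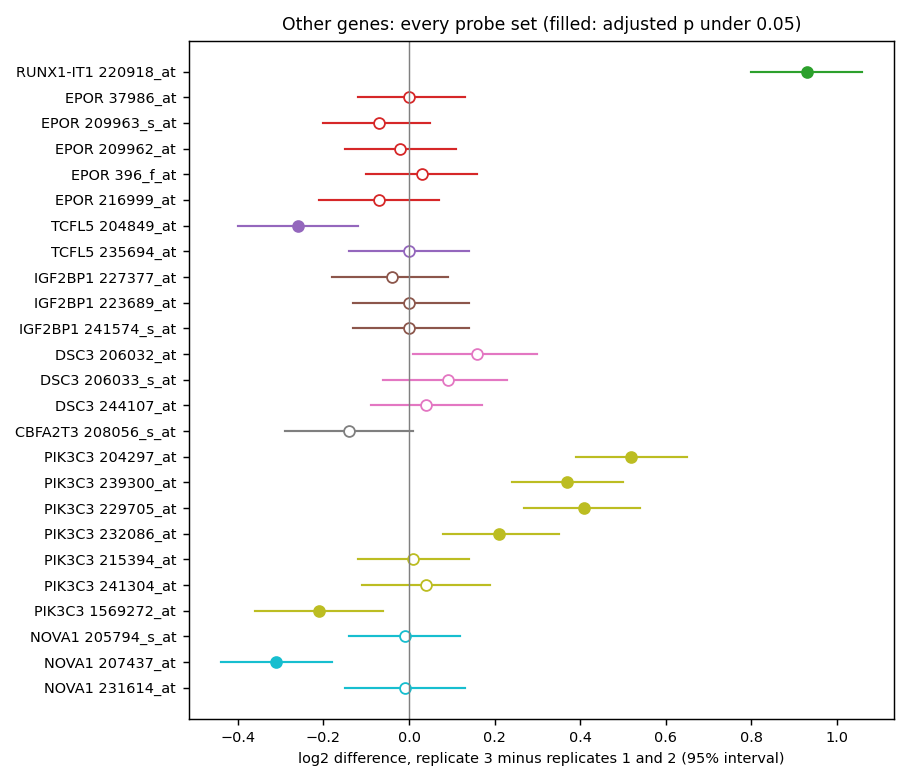
Log2 difference of replicate 3 minus replicates 1 and 2 of the treatments (x axis, with 95% interval) for every probe set of the other 8 genes (y axis). Filled points had an adjusted p under 0.05. RUNX1-IT1 lies farthest to the right at 0.93, followed by 3 PIK3C3 probe sets between 0.37 and 0.52.

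The mean levels of the marker lists are given beside these values. The B-lineage list averaged 10.34 to 10.44 in replicate 3 and 10.35 to 10.58 in replicates 1 and 2 of the treatments. The myeloid list averaged 6.21 to 6.27 and 6.15 to 6.26, and the T-cell list 5.62 to 5.69 and 5.67 to 5.79. List means can hide members that differ. CD79A, of the B-lineage list, fell by 0.56 ± 0.08 in replicate 3 (adjusted p 4.77e-08). The part of these levels in the results was not tested.

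Sequences around a start of transcription were compared for the genes that rose in replicate 3 and for RUNX1. The RefSeq windows (GRCh38.p14) reach from 250 bases before to 50 after the start, 5′ to 3′ on the minus strand for RUNX1-IT1 (chr21:35039377-35039676) and RUNX1 (chr21:34888650-34888949) and on the plus strand for PIK3C3 (chr18:41954984-41955283). Capitals mark the ETS core CCGGAA.
RUNX1-IT1: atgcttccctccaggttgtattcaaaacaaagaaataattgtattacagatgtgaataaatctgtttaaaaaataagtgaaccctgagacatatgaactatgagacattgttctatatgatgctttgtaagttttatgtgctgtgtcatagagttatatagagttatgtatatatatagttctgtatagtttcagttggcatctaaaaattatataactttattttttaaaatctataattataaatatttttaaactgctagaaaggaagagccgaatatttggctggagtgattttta
RUNX1: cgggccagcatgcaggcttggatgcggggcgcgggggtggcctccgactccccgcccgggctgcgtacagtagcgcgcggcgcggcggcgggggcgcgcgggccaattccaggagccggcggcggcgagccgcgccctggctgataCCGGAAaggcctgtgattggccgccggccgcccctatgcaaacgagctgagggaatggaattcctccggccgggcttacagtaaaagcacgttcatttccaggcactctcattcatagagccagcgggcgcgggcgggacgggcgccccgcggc
PIK3C3: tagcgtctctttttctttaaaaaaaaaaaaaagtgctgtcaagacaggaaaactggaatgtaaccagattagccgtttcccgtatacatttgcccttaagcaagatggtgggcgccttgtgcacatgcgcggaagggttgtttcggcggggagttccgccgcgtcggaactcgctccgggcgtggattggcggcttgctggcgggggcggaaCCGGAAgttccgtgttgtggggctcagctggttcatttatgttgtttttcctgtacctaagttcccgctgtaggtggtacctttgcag
The RUNX1-IT1 window has 27% G and C, against 72% for RUNX1 and 52.3% for PIK3C3. The RUNX1 window lies at a start inside the RUNX1 span, whose upstream end is at 35049302. RUNX1-IT1 lies between that window and that end. No RUNX1 window at the upstream end was given, so that sequence was not searched. The motifs searched, on both strands, were the RUNX core TGTGGT, which reads ACCACA on the other strand, and the ETS core CCGGAA, which reads TTCCGG there. No match of one overlapped a match of the other. Windows were given for 9 of the 10 genes, with 11 entries in all. The ETS core stood in 2 genes, RUNX1 and PIK3C3, and in 17.2% of all 35116 windows of this length. The RUNX core stood in 1 gene, in the entry of NOVA1 at chr14:26596048-26596347, and in 13.1% of all windows.

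Genes around the fusion were read from 8 lists of partners, reported targets and relatives. In the 6 comparisons of treatments, 0 genes of any list passed the test in the fit of group means, as was so for all genes. The genes with the smallest p over all treatments, 2 in each list, went both ways. Among reported RUNX1 targets, of which 11 were higher and 4 lower (median 0.03), RAG2, a recombinase subunit of immature lymphocytes, had -0.19 ± 0.07 and TAL1 0.11 ± 0.08. Among genes reported high in this leukaemia (7 higher, 6 lower, median 0.03) SEMA6A had 0.16 ± 0.07 and HAP1 0.08 ± 0.05. The ETS factors FLI1 and GABPA had -0.19 ± 0.09 and -0.2 ± 0.1 (4 higher, 7 lower, median -0.06). CBFB, the partner of RUNX1 in core binding factor, had -0.13 ± 0.16 and CBFA2T2, of the ETO family, 0.11 ± 0.14 (2 higher, 3 lower, median 0). The corepressor genes HDAC2 and TLE4 had -0.14 ± 0.08 and -0.1 ± 0.07 (4 higher, 7 lower, median -0.03). In EPOR signalling the phosphatase gene PTPN6 had 0.12 ± 0.08 and the kinase gene JAK2 -0.08 ± 0.07 (5 higher, 6 lower, median 0). Of the PIK3C3 complexes NRBF2 had -0.14 ± 0.1 and RUBCN 0.1 ± 0.12 (2 higher, 4 lower, median -0.04). Of the paralogues DSC2 had -0.19 ± 0.09 and NOVA2 -0.08 ± 0.06 (0 higher, 5 lower, median -0.07). The median of all genes was -0.005.

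In replicate 3 all 6 measured partners of PIK3C3 were called higher than in replicates 1 and 2 (median difference 0.23, against 0.001 for all genes and 17.1% of genes called higher). PIK3R4, its regulatory subunit, rose by 0.39 ± 0.07 and BECN1, the autophagy scaffold, by 0.27 ± 0.07. Of 11 measured corepressors and coactivators, 6 were called higher and 0 lower (median 0.21), among them L3MBTL1 at 0.32 ± 0.07, the acetyltransferase gene EP300 at 0.32 ± 0.07 and SIN3A at 0.25 ± 0.08. CBFB fell by 0.4 ± 0.07, while CBFA2T2, an ETO-family relative of CBFA2T3, rose by 0.37 ± 0.07, the called genes of the 5 in that list. Among 11 ETS factors 4 were called higher, such as ERG at 0.27 ± 0.07, and 3 lower, such as the repressor gene ERF at -0.42 ± 0.07 and SPIB at -0.34 ± 0.07 (median 0.08).

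Over all genes 17.1% were called higher in replicate 3 and 12.2% lower, beside which the next counts stand. Of 13 measured genes reported high in ETV6-RUNX1 leukaemia, 4 were called higher and 2 lower (median 0). GNG11, a G-protein subunit, fell by 0.77 ± 0.08 and TUSC3 by 0.43 ± 0.07, while the phosphatase gene PTPRK rose by 0.36 ± 0.07. Of 15 measured reported RUNX1 targets, 1 was called higher, MYB at 0.2 ± 0.07, and 3 lower (median 0.05). These were CD79A, a subunit of the B-cell receptor, at -0.56 ± 0.08, the cell cycle inhibitor CDKN1A at -0.52 ± 0.07 and LMO2 at -0.22 ± 0.07. Of 11 genes of EPOR signalling, 1 was called higher, STAT5B at 0.27 ± 0.07, and 4 lower, such as the survival gene BCL2L1 at -0.4 ± 0.07 (median 0.04). Of 5 measured paralogues of the genes followed here, IGF2BP3 was the 1 called, at 0.38 ± 0.07 (median 0.11), while IGF2BP1 had -0.04 ± 0.07.

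The genes whose profiles were most like those of ETV6 and RUNX1 were sought over the 8 arrays numbered 1 and 2, by Pearson correlation as a measure of likeness. The search covered all other genes with a mean at or above the median of all genes, and the 3 highest are given. For ETV6 they were WNT6 (r = 0.979), SF3A2 (0.956) and TTYH3 (0.949), over an ETV6 range of 0.2. For RUNX1 they were RNF40 (0.989), P4HB (0.963) and RUBCN (0.953), over a RUNX1 range of 0.29. Other probe sets of the same gene had lower correlations, but they were not picked by r. The genes above were the highest of a large search, so the 2 kinds of value cannot be weighed against each other. Correlations with the brightest probe set ran from -0.26 to 0.56 for ETV6 and from -0.76 to 0.5 for RUNX1, while for PIK3C3 they ran from -0.61 to 0.79, with 0.79, 0.65 and 0.61 for the 3 other probe sets called higher in replicate 3, 229705_at, 239300_at and 232086_at. These profiles span small ranges and share their arrays, and are given as a description.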

How the data were processed

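RNA of 11 Reh samples was hybridized to 1-colour Affymetrix arrays, per the labels. The deposited table holds log2 values between 4.398 and 14.839; the scale was judged from that range. How probe sets were summarised and normalized is not given in the sources used here. No replicate pair had identical values.

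Of 54675 probe sets, 42898 were listed with a gene and 1801 of these with several, which were left out except those listed with RUNX1, which has no probe set of its own alone. This differs from the design as planned and added 1 gene. Each gene was represented by its brightest probe set (19776 genes), and 41104 probe sets were also fitted singly. Tests used limma 3.58.1 under R 4.3.3 (lmFit, eBayes, a mean per group over 11 arrays; treatment and replicate 3 as terms over the 9 treated arrays). Benjamini-Hochberg adjusted p under 0.05 over all genes counted as called, 2-sided. The fits were run on simulated data whose noise was independent between arrays. For the treatment comparison those data held no shared replicate 3 effect, so they do not show how that fit behaves with it. The number of arrays limits the precision.

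The genes and lists were chosen with earlier results of these data known. All 10 genes and their probe sets were named always; lists contributed up to 4 called genes in a comparison, or else the 2 with the smallest p. Alternatives were quantile normalization, a level filter, the mean of probe sets, replicate terms and leaving out each array. Arrays of different treatments with the same replicate number deviated together (r 0.168 to 0.816, 9 of 9 pairs over 0.1), while for control and treated arrays 3 of 6 pairs did (-0.152 to 0.438), so the number was taken to pair treatments but not control.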

Additional observations from a re-analysis of the deposited data

How the results depend on the processing

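For the treatments against control, the count of genes called was 0 of 10 under quantile normalization, the mean of probe sets, replicate 3 as a term and arrays numbered 1 and 2 only. It was also 0 of 10 in all refits without 1 array (lowest 0, highest 0). The level filter kept genes at or above the median level. ETV6 fell below it and was not tested there, and none of the others was called. With the replicate block the count was 1, both for the combination and for all treatments together. That gene was RUNX1-IT1, whose log2 difference turned to -0.29 (adjusted p 0.0377) and -0.26 (adjusted p 0.0401). The cause was not tested. With replicate 3 as a term the same differences had adjusted p of 0.0572 and 0.0722. Control has no replicate 3, so the block takes its replicate 3 effect from the treated arrays. Whether the numbers pair control with treated arrays could not be decided with 2 control arrays. The block changed no other call among the 10 genes, and called 863 and 508 of all genes in these comparisons. Replicate 3 as a term called 443 and 24 of all genes there, and arrays numbered 1 and 2 alone 290 and 198. For replicate 3 against replicates 1 and 2 the count of 3 was 2 with the mean of probe sets and between 2 and 4 without 1 array, and RUNX1-IT1 (0.9 to 0.97) and PIK3C3 (0.46 to 0.56) were called in every refit. The mean over probe sets gave PIK3C3 0.19 (adjusted p 0.00898). Of 1143 recomputed differences of single genes, 126 had the other sign than reported without a call in either setting. By over 1 standard error of the fit as reported, 34 moved. In the comparisons with control that error holds the spread of the replicate 3 arrays. RUNX1-IT1 with miR-99a went from 0.1 ± 0.37 to -0.22 ± 0.08 on arrays numbered 1 and 2, and was not counted as moved. Dim probe sets, among them those of ETV6, limit what can be detected, and 2 control arrays limit every comparison with control.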
